A study of Mus musculus with 6 samples.

Results

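The MAP kinase phosphatases are enzymes that switch off MAP kinases, and 8 of their genes were followed here in Bach2 knockout and wildtype thymocytes: Dusp1, Dusp2, Dusp4, Dusp5, Dusp6, Dusp7, Dusp10 and Dusp16. They were chosen by name, with earlier results of these data known. Their rows are those of the deposited table whose annotation gives exactly one of these symbols. All 8 were found among 19938 genes tested. Each had 1 probe set, the group of probes that is summarised to 1 value per array. RNA came from CD4 single-positive thymocytes, the thymic T cells that have kept CD4 and lost CD8, on 6 arrays. There were 3 arrays of Ly5.1+ wildtype cells and 3 of Ly5.1- Bach2 knockout cells, all C57BL/6 and male, and the design text describes separate mice as biological replicates. Both genotypes had developed in mixed chimeras: Rag1 knockout males, hosts that lack T and B lymphocytes of their own, were irradiated at 8 weeks of age and given equal parts of lineage-depleted bone marrow from 8 week old donors of either genotype, and thymocytes were sorted 2 months later. Bach2 encodes a transcriptional repressor. The knockout marrow came from Bach2 knockout mice, and the labels do not state the extent of the deletion. The Ly5.1 allele of the sort marker Ptprc went together with genotype throughout.

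MAP kinases are activated when a kinase above them phosphorylates a threonine and a tyrosine in their activation loop. A dual-specificity phosphatase removes both phosphates, and so ends the signal. Many of these phosphatases are themselves induced by the pathway they shut down, which makes them part of a negative feedback loop. In thymocytes the ERK branch is switched on by the T cell receptor and takes part in positive selection. The family is usually sorted into nuclear, inducible enzymes (Dusp1, Dusp2, Dusp4 and Dusp5), cytoplasmic enzymes that prefer ERK (Dusp6 and Dusp7), and enzymes that prefer the stress kinases JNK and p38 (Dusp10 and Dusp16).

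The promoters of Dusp1 and Dusp5, both of the inducible class, are printed because they were the ones in which a searched motif was found, and the motifs differ. RefSeq's table for build GRCm38.p6 gave promoters for 7 of the 8 genes. Dusp4 has no entry in it. Both sequences below run from upstream of the annotated transcription start to just past it. In Dusp1 (chr17:26508423-26508722, minus strand) the capitals mark the cyclic AMP response element TGACGTCA and a site that lacks its last base, TGACGTC. In Dusp5 (chr19:53528895-53529194, plus strand) they mark 2 adjoining CArG boxes, the sequence bound by serum response factor.
Dusp1: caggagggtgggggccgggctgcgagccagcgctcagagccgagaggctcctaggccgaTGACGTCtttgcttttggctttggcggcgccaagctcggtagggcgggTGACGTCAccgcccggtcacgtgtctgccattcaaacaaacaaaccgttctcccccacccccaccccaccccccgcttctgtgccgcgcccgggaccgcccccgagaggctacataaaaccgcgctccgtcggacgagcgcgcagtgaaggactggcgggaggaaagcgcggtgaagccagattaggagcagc
Dusp5: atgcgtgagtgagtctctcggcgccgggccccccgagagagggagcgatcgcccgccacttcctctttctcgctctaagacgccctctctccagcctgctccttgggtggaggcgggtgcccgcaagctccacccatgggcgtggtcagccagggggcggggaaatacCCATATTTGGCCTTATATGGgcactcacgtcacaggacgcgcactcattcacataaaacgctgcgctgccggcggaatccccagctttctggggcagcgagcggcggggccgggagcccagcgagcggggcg

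Searched on both strands, TGACGTCA was present for 1 of the 7 genes with a promoter and in 1.79% of all 32851 promoter entries of the same length. In this paragraph the 7 are counted by gene and the share of all by entry. The shorter TGACGTC, which every TGACGTCA contains, was present in 1 of the 7 and in 3.21% of all. A CArG box was present in 1 of the 7 and in 1.63% of all. The core TGANTCA, which AP-1 factors bind and which also lies within the sites of Bach proteins and their small Maf partners, was present in 0 of the 7 and in 7.81% of all. These are matches of letters in a short window, and no binding was measured here.

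Defining markers of the sorted cells were read first. Cd3e, a chain of the T cell receptor complex, was at 11.4 to 11.5 on the log2 scale on all 6 arrays, and Cd4 at 10.3 to 10.4. Cd8a was at 7.67 to 7.90 on 5 arrays and at 8.90 on knockout replicate 3. Cd8b1, the gene of the other CD8 chain, was at 8.77 to 9.19 on 5 arrays and at 9.55 on knockout replicate 3. By mean over the 6 arrays, Cd8a stood at percentile 86.1 and Cd8b1 at percentile 95.2 of all genes tested. Both CD8 genes thus read high in cells named as having lost CD8, and the reason was not tested. Bach2 had values of 7.89, 8.20 and 8.05 in wildtype arrays against 6.50, 6.42 and 6.52 in the knockout, a fall of 2.96-fold by limma (adjusted p = 0.000156). The median value of all probe sets was 4.93 to 4.97 on every array, and 3 arrays per group limit the precision.

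Of the 8 phosphatase genes 1, Dusp4, fell in knockout thymocytes and 0 rose, by limma with Benjamini-Hochberg adjustment over all genes at an adjusted p under 0.05. Among all genes tested 0.216% were lower and 0.351% higher by the same rule. The unadjusted p was under 0.05 for 2 members, Dusp4 and Dusp6, both with the lower mean in the knockout, where 6.91% of all genes lay under that limit in either direction. In 7 of the 8 the knockout mean was the lower one. The median difference over the 8 was -0.16 on the log2 scale, against -0.01 over all genes tested.

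**Figure D1:**
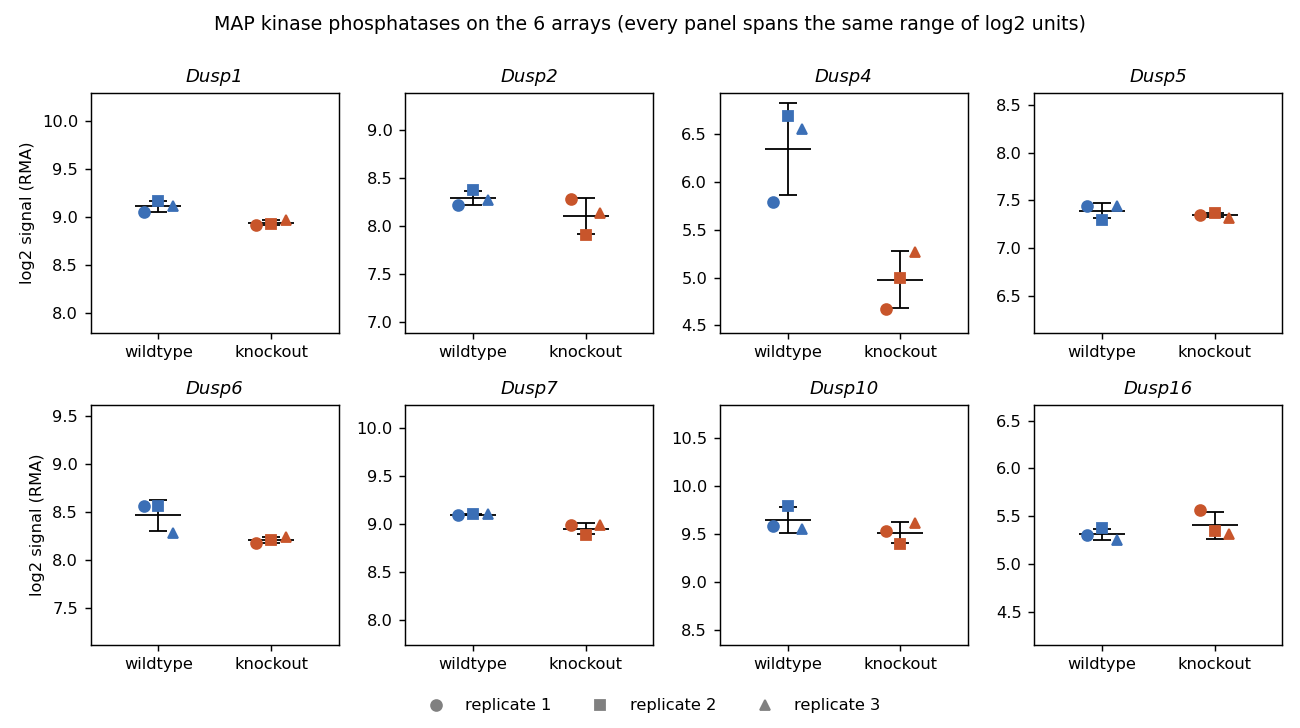
Log2 signal of each of the 8 MAP kinase phosphatase genes on the 3 wildtype (blue) and 3 knockout (orange) arrays, 1 point per array with the marker giving the replicate number, and the mean with its SD in black. The vertical axes differ in level but span equally many log2 units, so the gap in Dusp4, from a mean of 6.34 to 4.98, can be set against the smaller ones in the other panels.

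Dusp4 (probe set 10571312, on chromosome 8) encodes a nuclear phosphatase that acts on ERK and also on JNK and p38. Its log2 signal was 5.791, 6.682 and 6.547 on the wildtype arrays, in the order of replicates 1 to 3, and 4.668, 4.996 and 5.263 on the knockout arrays. All 3 knockout values lay below all 3 wildtype values, and wildtype replicate 1 was the wildtype array closest to them. The mean went from 6.34 ± 0.48 to 4.98 ± 0.30 (SD, n = 3 each). That is a 2.57-fold fall, or -1.36 ± 0.22 on the log2 scale (limma standard error), with a 95% interval of -1.86 to -0.87 and an adjusted p of 0.0261. The wildtype SD of 0.48 was the widest of any member, the next being 0.16 for Dusp6. The knockout values lay on both sides of the array median.

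The call on Dusp4 was not stable to the arrays included. Leaving out wildtype replicate 2 gave an adjusted p of 0.0815, and leaving out wildtype replicate 3 gave 0.16. Leaving out knockout replicate 1 gave 0.0864, and knockout replicate 2 gave 0.101. The call held when wildtype replicate 1 (0.00213) or knockout replicate 3 (0.0477) was left out. The difference itself ranged from -1.64 to -1.19 over these 6 fits, and its sign did not turn. With all probe sets in the fit the adjusted p was 0.303, and without moderation 0.616.

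Dusp1, the other broad nuclear phosphatase and an immediate early gene, was at 9.05, 9.17 and 9.12 in wildtype and at 8.92, 8.93 and 8.97 in knockout arrays. The groups did not overlap, but the gap was small: -0.17 (95% interval -0.37 to 0.03, adjusted p = 0.822). Dusp2, a nuclear phosphatase that is abundant in activated blood cells and was once called PAC1, was at 8.22, 8.37 and 8.27 in wildtype and at 8.28, 7.90 and 8.13 in knockout arrays. Here knockout replicate 1 lay among the wildtype values, and the difference of -0.18 (-0.44 to 0.07) had an adjusted p of 0.887.

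Dusp5 is a nuclear phosphatase specific to ERK, and its promoter is the one printed with CArG boxes. It was at 7.44, 7.30 and 7.44 in wildtype and at 7.35, 7.37 and 7.32 in knockout arrays, so that all the knockout values fell inside the wildtype range. The difference was -0.05, with an interval of -0.25 to 0.16 (limma, adjusted p = 0.992). Within the nuclear, inducible class the members therefore had unlike values: of the 4, Dusp4 passed the test, and the intervals of Dusp1, Dusp2 and Dusp5 lay wholly above that of Dusp4. The differences between members were not themselves tested.

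Dusp6, the cytoplasmic phosphatase of ERK and a widely used readout of its activity, had the second largest difference. It was at 8.56, 8.56 and 8.28 in wildtype and at 8.17, 8.21 and 8.24 in knockout arrays. The groups did not overlap, although wildtype replicate 3 stood close to knockout replicate 3. Its mean went from 8.47 ± 0.16 to 8.21 ± 0.03 (SD, n = 3 each), a difference of -0.26 with an interval of -0.49 to -0.03. It did not pass over all genes (limma, adjusted p = 0.636).

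Dusp7, its close relative, was at 9.09, 9.11 and 9.10 in wildtype and at 8.99, 8.89 and 8.99 in knockout arrays. The wildtype arrays were tightly grouped (SD 0.007) and all lay above the knockout arrays. The difference of -0.14 (-0.34 to 0.05) did not pass (limma, adjusted p = 0.887).

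In the class that prefers the stress kinases, both genotypes overlapped. Dusp10, which acts on JNK and p38, was at 9.58, 9.80 and 9.55 in wildtype and at 9.53, 9.40 and 9.61 in knockout arrays. Its difference was -0.13 (-0.37 to 0.11, limma, adjusted p = 0.951). Dusp10 lies on chromosome 1 as does Ptprc, with 336 tested genes between them in RefSeq's order. None of the other members shares a chromosome with Ptprc or with Bach2.

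Dusp16, a phosphatase that prefers JNK, was the 1 member with the higher mean in the knockout. It was at 5.30, 5.38 and 5.26 in wildtype and at 5.57, 5.35 and 5.31 in knockout arrays, with knockout replicate 1 above the rest. The difference was 0.10 (-0.13 to 0.33, limma, adjusted p = 0.979).

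Over the 7 members other than Dusp4, the differences ran from -0.26 to 0.10, or at most 1.20-fold, and the adjusted p from 0.636 to 0.992. Their 95% intervals reached no lower than -0.49 and no higher than 0.33. These bounds leave room for changes of that size, so a miss of the threshold does not show that the genes were equal. The 3 knockout values lay on one side of the 3 wildtype values in 4 of the 8 members (Dusp1, Dusp4, Dusp6 and Dusp7), all with the knockout lower, against 11.7% of all genes in either direction. Members measured on the same 6 arrays are not independent of each other, and 6 of the 8 were highest, among the wildtype arrays, on wildtype replicate 2.

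The rest of the dual-specificity family did not move past the test. Dusp8 and Dusp9, the other MAP kinase phosphatases, differed by 0.03 and 0.01. Of 15 atypical members, which lack the MAP kinase binding domain, 0 passed by limma and 0 had an unadjusted p under 0.05. Their median difference was -0.04 and their range -0.20 to 0.17. The outermost were Dusp15 (-0.20, adjusted p = 0.804) and Dusp12 (0.17, adjusted p = 0.873).

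**Figure D2:**
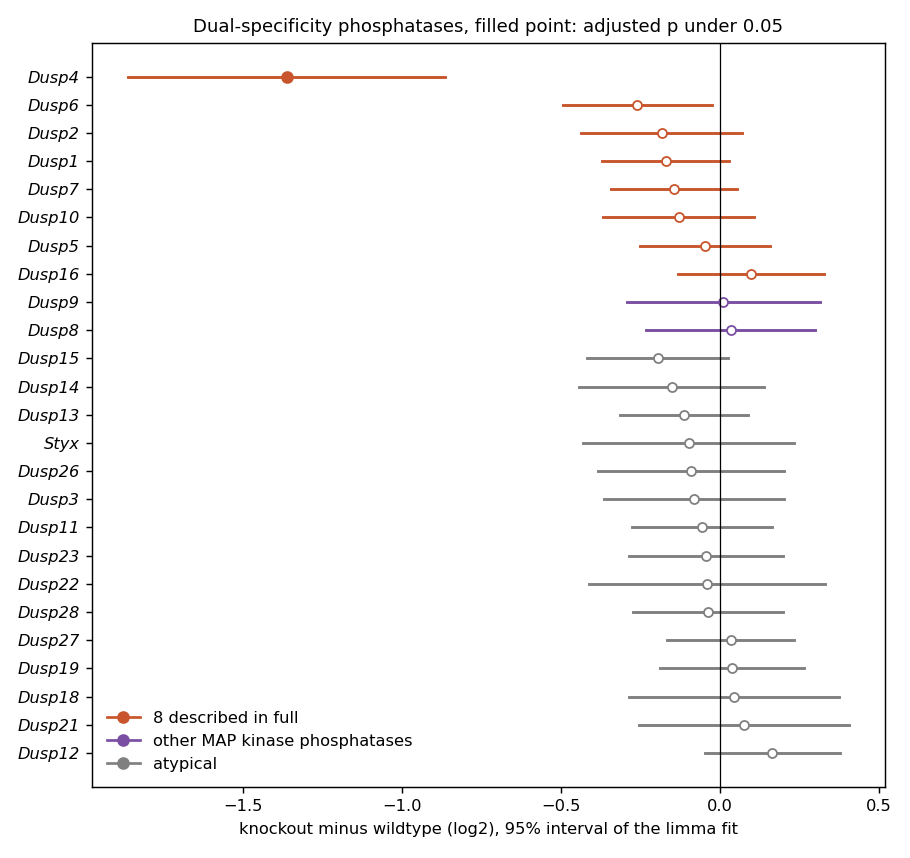
Knockout minus wildtype difference on the log2 scale with its 95% limma interval for the 8 members (orange), Dusp8 and Dusp9 (purple) and 15 atypical dual-specificity phosphatases (grey); filled points passed at an adjusted p under 0.05. Dusp4 is the filled point, at -1.36, and its interval ends at -0.87, below the lowest bound of every other gene plotted.

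Markers of regulatory T cells are set beside Dusp4 here. Foxp3, the factor that defines that lineage, was at 7.30, 8.29 and 8.33 in wildtype and at 5.58, 5.36 and 5.69 in knockout arrays (limma, adjusted p = 0.00148). Averaged over 19 such markers, the signal read 7.40, 8.04 and 8.02 on the wildtype arrays, again in replicate order, and 7.06, 7.05 and 7.13 on the knockout arrays. Wildtype replicate 1, the lowest wildtype array for Dusp4, was also the lowest for 17 of the 19 markers. An unadjusted p under 0.05 by limma was found for 16 of the 19 markers, against 6.91% of all genes, in either direction. The genotypes did not overlap in 14 of the 19, against 11.7% of all genes. Of the 19 markers 5 fell, Foxp3, Ikzf2, Lrrc32, Nt5e and Il2ra, and 1 rose, Izumo1r, where 0.567% of all genes passed in either direction. The difference was below 0 for 16 and above 0 for 3 of them, with a median of -0.74; beside Izumo1r (0.92), the higher ones were Gpr83 (0.72, limma adjusted p = 0.5) and Icos (0.15, 0.887), which did not pass. Foxp3 passed in all 6 fits that left out an array, Ikzf2 in 5, Lrrc32 in 4, Nt5e in 2, and Il2ra and Izumo1r in 1 each. Ikzf2 was lost without wildtype replicate 3 (0.0617), Lrrc32 without that array (0.0657) or knockout replicate 2 (0.0541), Nt5e passed without wildtype replicate 1 or 2, Il2ra without wildtype replicate 1, and Izumo1r without wildtype replicate 2. With all probe sets in the fit the adjusted p was 0.0743 for Foxp3, 0.173 for Ikzf2 and 0.223 for Lrrc32, and without moderation of the variances it was 0.393 for Foxp3. In RNA from sorted cells in bulk, fewer cells of one type and less RNA per cell cannot be told apart, and the part of the regulatory T cell markers in the Dusp4 result was not tested.

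The 5 genes whose profile over the 6 arrays lay closest to that of Dusp4 were Ccr6, Nrp1, Itgae, Ikzf2 and Cxcr3. Closeness is the root mean square difference between log2 profiles after each was centred on its own mean. It was 0.08 for Ccr6, a chemokine receptor, which read 4.44, 5.42 and 5.34 in wildtype arrays against 3.52, 3.88 and 4.10 in the knockout. It was 0.11 for Nrp1 (neuropilin 1) and 0.13 for Itgae (the integrin chain CD103). For Ikzf2 (Helios) it was 0.15 and for Cxcr3, another chemokine receptor, 0.16. All 5 were low in wildtype replicate 1 among the wildtype arrays, and 3 of them, Nrp1, Itgae and Ikzf2, are in the regulatory T cell marker list. The genes were picked for this likeness, so their own differences, from -1.51 for Ikzf2 to -1.13 for Itgae, add nothing to it.

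**Figure D3:**
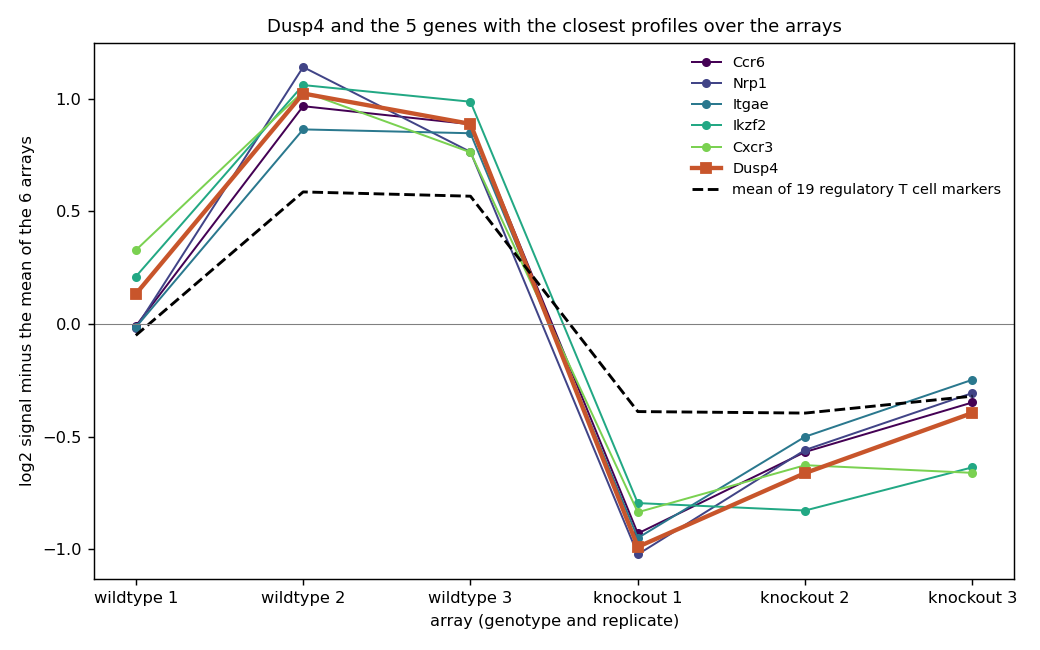
Log2 signal minus the mean of the 6 arrays for Dusp4 (thick orange line), the 5 genes closest to it and the mean of 19 regulatory T cell markers (dashed), by array; lines only join the points of a gene. Dusp4 reads 5.79 on wildtype replicate 1, between the other wildtype arrays and the knockout arrays, and the other lines have their wildtype low point on that array too.

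Markers of other cells that a sort could hold were read beside the members. The macrophage and monocyte list (7 genes) had a mean of 4.24 to 4.51 in wildtype and 4.40 to 4.82 in knockout arrays, and 1 of its genes, Lyz2, was called higher. That call was lost without wildtype replicate 2 or 3 (adjusted p 0.0823 and 0.153) or knockout replicate 1 or 2 (0.0821 and 0.119). The double-positive thymocyte list (8 genes) had a mean of 6.65 to 6.96 in wildtype and of 6.72, 7.26 and 7.90 in knockout arrays. Of these 8 genes 0 were called by limma and 4 had an unadjusted p under 0.05. Among all genes tested 0.567% were called and 6.91% had an unadjusted p under 0.05, in either direction. In the CD4 T cell (10), CD8 T cell (4), B cell (5), natural killer cell (6) and dendritic cell (6) lists 0 were called by limma, and 3, 2, 0, 2 and 0 had an unadjusted p under 0.05. The smallest p values in these lists belonged to Il7r (0.49) and Cd28 (0.25), Eomes (-0.70) and Runx3 (-0.55), Cd79a (0.30) and Cd79b (0.08), Nkg7 (-0.76) and Klrk1 (-0.29), and Itgax (0.31) and Clec9a (0.12), given as knockout minus wildtype on the log2 scale. The CD4 list had 5 genes above and 5 below 0 (median 0.01), with Gata3 at -0.26, and the CD8 list had 2 above, Cd8a (0.37) and Cd8b1 (0.13), and 2 below (median -0.21). In the double-positive list 7 of 8 genes were above 0, with a median of 0.42. Its smallest p values belonged to Cd24a (-0.58), the 1 gene below 0, and Arpp21 (0.95), and its largest difference was that of Rag1 (1.27, adjusted p = 0.591). Knockout replicate 3, the highest array of the double-positive list, was also the highest knockout array for Dusp4, and the part of these cells in the members' values was not tested.

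Around the 8 members, 95 other genes were measured of 101 listed, and they include the 17 other dual-specificity phosphatases described above. By limma 1 of the 95 rose and 1 fell, where 0.351% of all genes were higher and 0.216% lower. The other listed genes were not analysed here. Over these 95 genes 11.6% had an unadjusted p under 0.05 by limma, against 6.91% of all genes. Of the 17 phosphatases among them 0 lay under that limit. The genotypes did not overlap in 17.9% of the 95 genes, against 11.7% of all genes. The median difference of the 95 was -0.03. The genes of a pathway are not independent of each other, and the comparison of these shares was not tested.

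The gene that rose was Map3k5, known as ASK1, a MAP kinase kinase kinase that responds to oxidative stress and feeds the JNK and p38 branches. It was at 6.55, 7.05 and 6.88 in wildtype and at 7.59, 7.66 and 7.71 in knockout arrays, with every knockout array above every wildtype array. Its mean went from 6.83 ± 0.25 to 7.65 ± 0.06 (SD, n = 3 each), a 1.77-fold rise (0.82 ± 0.13 on the log2 scale, limma adjusted p = 0.0208). The call was lost without wildtype replicate 3 (0.099) or knockout replicate 1 (0.0578), 2 (0.0962) or 3 (0.107), with all probe sets in the fit (0.224) and without moderation (0.491). The remaining 9 of 10 genes at its level did not pass, and the list's median difference was 0.04.

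The gene that fell was Nr4a3, an orphan nuclear receptor induced by T cell receptor signals, at -0.60 (limma, adjusted p = 0.0209). It is 1 of 18 genes listed as induced by ERK or receptor signalling, whose median difference was -0.04, with 6 above and 12 below 0. Its relative Nr4a1, known as Nur77, was at 9.34, 9.18 and 9.16 in wildtype and at 8.87, 8.68 and 8.63 in knockout arrays, a difference of -0.50 that did not pass (limma, adjusted p = 0.0932). Nr4a2, another relative, differed by -0.20 (limma, adjusted p = 0.928). Of the 18 genes 3 had an unadjusted p under 0.05 by limma, Nr4a3, Nr4a1 and Myc, all lower. Among all genes 6.91% lay under that limit in either direction. Myc differed by -0.28 (limma, adjusted p = 0.449), with every knockout array below every wildtype array. Cd69, Etv5 and Egr2 of the same list were above 0, by 0.28, 0.20 and 0.18 (limma, adjusted p = 0.764, 0.963 and 0.81). For Egr2 every knockout array lay above every wildtype array. Nr4a3 shares chromosome 4 with Bach2, with 150 tested genes between them. The call on Nr4a3 passed without wildtype replicate 1 (0.0451) or 2 (0.0435), and was lost without wildtype replicate 3 (0.0788) or knockout replicate 1 (0.0945), 2 (0.12) or 3 (0.0834), with all probe sets (0.151) and without moderation (0.259).

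At the other levels of the cascade 0 genes passed by limma, and the values of smallest p were these. Among 9 genes listed around Ras activation (0 at an unadjusted p under 0.05), the exchange factor Rasgrp2 differed by -0.28 and the scaffold Ksr1 by 0.21. Among 12 feedback inhibitors (0 unadjusted), Spred2, which restrains Raf activation, differed by -0.27 and the adaptor Dok1 by 0.22. The Ras activation list had 4 genes above and 5 below 0 (median -0.005), and the inhibitors 7 above and 5 below (median 0.01).

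Among 6 MAP kinase kinases (1 unadjusted) Map2k3, an activator of p38, differed by 0.31 and Map2k6 by -0.16. Among 8 MAP kinases (1 unadjusted) Mapk11, which encodes p38 beta, differed by 0.30 and Mapk10 by -0.14. The median differences of these lists were -0.03 and 0.03.

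Among 6 other phosphatases of MAP kinases (2 unadjusted), Ptpn7, a tyrosine phosphatase of blood cells that acts on ERK and p38, was at 8.45, 8.59 and 8.44 in wildtype and at 8.75, 8.75 and 8.74 in knockout arrays. The groups did not overlap, and the difference of 0.26 had an adjusted p of 0.525. Ppm1b differed by -0.29. Among 9 genes tied to the stress kinases, the Gadd45 genes included (3 unadjusted), Mapkapk2 and Mapkapk3, kinases that p38 activates, differed in opposite directions. Their differences were -0.37 and 0.35 (limma, adjusted p = 0.286 and 0.302). The median difference was -0.07 over the phosphatases and -0.14 over the genes tied to the stress kinases.

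**Figure D4:**
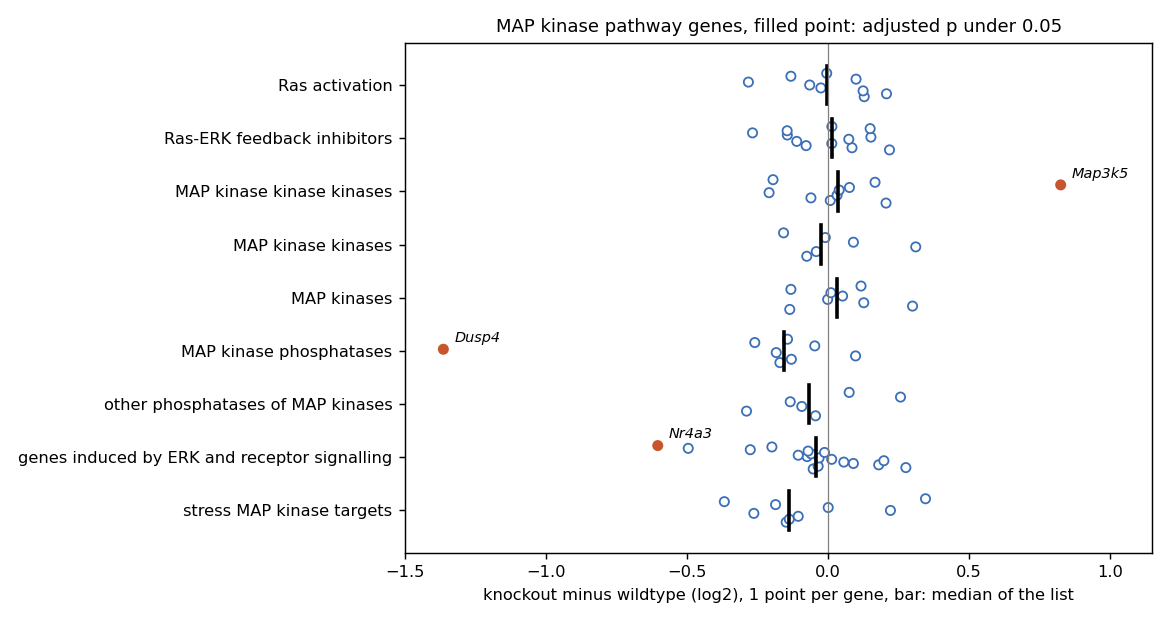
Knockout minus wildtype difference on the log2 scale, 1 point per gene, for 9 lists of the MAP kinase cascade from Ras activation to induced genes; filled points passed at an adjusted p under 0.05 and the black bar is the median of each list. Map3k5 (0.82) lies to the right and Dusp4 (-1.36) and Nr4a3 (-0.60) to the left, while the list medians stay between -0.16 and 0.04.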

How the data were processed

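The authors deposited 1 log2 value per probe set and array. Per the submitters' processing notes RMA and Partek were used. Neither their versions nor a build is stated there. The log2 scale was inferred from the range of the values (1.10 to 13.2). Because RMA brings all arrays close to one distribution (medians of 4.93 to 4.97 here), it hides any change common to all genes. Of 35556 probe sets, 21789 had 1 symbol in the platform's annotation, parts of which may be outdated, 1621 had several and 12146 had none listed. For a gene with several probe sets the one of highest mean was used. Two-sided tests of knockout minus wildtype used lmFit and eBayes of limma 3.58.1 under R 4.3.3 on 19938 genes, with Benjamini-Hochberg adjustment over all of them and no block. Intervals are at 95%, not adjusted for the number of genes. The procedure was tested on simulated data. Promoters came from RefSeq, and figures were drawn with matplotlib 3.10.9.

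The members and the gene lists were chosen with earlier results of these data known. From each list the genes named are those called, or the 2 of smallest p. Nr4a1, Nr4a2, Myc, Cd69, Etv5, Egr2, Cd3e, Cd4, Cd8a, Cd8b1, Gata3, Rag1, Gpr83 and Icos were added after their values were seen. Alternatives were other priors or none, leaving out dim genes, other scalings, array weights, averaged or all probe sets, the replicate number as a block and leaving out each array.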

Additional observations from a re-analysis of the deposited data

How the results depend on the processing

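Without moderation of the variances limma found 1 gene higher (572 unadjusted), 0 lower (708 unadjusted, at p under 0.05) and 0 members lower (3 unadjusted), with Dusp4 at -1.36 and an adjusted p of 0.616. With all 35556 probe sets in the fit 29 were higher and 8 lower, 0 members were called by limma (2 unadjusted), and Dusp4 at -1.36 had an adjusted p of 0.303. A prior that followed expression level called 78 genes lower. Fits that each left out an array gave 29 to 82 genes higher, 18 to 66 lower, 0 to 1 member lower and a Dusp4 difference of -1.64 to -1.19. The cause was not tested, beyond the larger number of features and the fewer arrays. Dusp4 passed in 8 of the 10 other settings, and the 7 remaining members kept their sign and did not pass in any of the 16. Whether the replicate numbers pair the arrays was not settled. Deviations of same-numbered arrays correlated at 0.21, 0.11 and -0.07 across genes, and those of unlike-numbered arrays at -0.26 to 0.17. With the replicate number as a block 79 genes were higher and 55 lower, and Dusp4 had an adjusted p of 0.00256. Outlier checks need at least 4 arrays per group and were not made. The files give no background signal per array, so what it limits was not tested.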
